A study of Homo sapiens with 95 samples.

Results

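The CSC response of NRF2 overexpressing cells was described from 6 of the 95 samples of the series, 3 samples labelled NRF2-CSC and 3 labelled NRF2-DMSO. AALE cells, human bronchial epithelium made immortal for culture, carried an overexpression construct for NRF2, the protein encoded by NFE2L2, and were given either 24 µg/ml cigarette smoke condensate (CSC) or its solvent, DMSO. The response was set beside that of the vector control, AALE cells that overexpressed an empty vector with the reporter HcRed. Those cells were given the same dose of CSC (3 samples) or DMSO (3 samples). HcRed values are given below for some of the named genes and not for all, and a missing value does not mean that HcRed cells did not change. All cells were grown to confluence before exposure, and the time of exposure, the promoter of the construct and whether each line was 1 clone were not given in the sources used here. RNA was measured by sparse full length (SFL) sequencing, in which barcoded total RNA libraries of many samples share a single sequencing run. Of 27978 genes listed in the count files, 13943 had a mean count above 1 over the 6 samples and were tested.

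CSC is the particulate phase of cigarette smoke taken up in solvent, and it holds polycyclic aromatic hydrocarbons. These compounds bind the aryl hydrocarbon receptor (AhR), which leaves its HSP90 complex, pairs with ARNT in the nucleus and switches on cytochrome P450 genes that oxidise the compounds, together with its own repressor, AHRR. The reactive products are met by a second program, run by the transcription factor NRF2, which is held low by KEAP1 and, once released, switches on genes of glutathione and thioredoxin metabolism, NADPH supply, iron storage and drug export. In airway epithelium both programs are known from smokers.

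The 6 samples held between 688687 and 992416 reads counted in genes, all 3 CSC samples below all 3 DMSO samples, and the 6 HcRed samples between 694898 and 1440757, within the range of 287446 to 2116383 over the series. At these depths 3 reads correspond to 3.02 to 4.36 CPM (reads relative to a sample's total) in the NRF2 samples. Levels are given below either as reads or as log2 CPM, and differences as log2 fold changes with their standard error (SE), CSC against DMSO, from limma-voom with 3 samples a group. Adjusted p-values are Benjamini-Hochberg values over all genes tested, and "rose" and "fell" are used of genes under 0.05. The samples of a group are called biological replicates, but the sources used here do not say whether they were separate cultures, so the p-values measure only the spread between these samples. Markers of basal bronchial epithelium (KRT5, KRT14, KRT17, TP63, EPCAM, CDH1 and ITGA6) summed to between 4737 and 9612 reads a sample with none of the 7 at 0. Marker lists of endothelium, blood, ciliated, secretory and neuroendocrine cells each summed to at most 7 reads, while the fibroblast list summed to 8 to 14 reads in the DMSO and 25 to 28 in the CSC samples, nearly all of it COL1A1 (1.5 ± 0.31, adjusted p = 0.000253), with COL1A2, COL3A1, LUM and PDGFRB at 0 in all 6.

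NFE2L2 itself was measured first, since its level checks the labels. The 3 NRF2-DMSO samples held log2 CPM of 10.65, 10.67 and 10.80, and the HcRed-DMSO samples 7.89, 7.72 and 7.75, so that the lines did not overlap. With CSC the NRF2 cells held 10.37, 10.39 and 10.44, all below the DMSO samples, a fall of -0.30 ± 0.043 on the log2 scale (adjusted p = 4.58e-08), or -0.17 after a correction for GC content described below. Reads of the construct and of the cells' own NFE2L2 cannot be told apart in these counts. Mean NFE2L2 levels in NRF2 cells given benzo[a]pyrene (BaP) or NNK, a nitrosamine of tobacco, the single carcinogens of the series, were 10.43 ± 0.015 and 10.43 ± 0.035 (SD, n = 3). In HcRed cells the CSC difference was -0.14 ± 0.10 (adjusted p = 0.331), and KEAP1, the adaptor that targets NRF2 for degradation, differed by 0.36 ± 0.16 in NRF2 cells (adjusted p = 0.16).

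CSC changed 1269 genes in NRF2 cells, 9.1% of those tested (376 by DESeq2 and 701 after the GC correction described below), of which 681 (4.88%) rose and 588 (4.22%) fell. The rises were larger: their median log2 fold change was 0.71 against -0.46 for the falls, and 173 rose by at least 2-fold where 30 fell by as much. Only 22 rose and 4 fell by at least 4-fold. Within-group correlations of log2 CPM over 9728 genes were 0.957 to 0.969 and those between groups 0.933 to 0.946, and the first principal component, with 43.7% of the variance, had the 3 CSC samples on one side and the 3 DMSO samples on the other. The share of genes called grew with expression, from 0.567% in the lowest of 4 equal groups by mean count to 21.9% in the highest. Over all genes tested, the CSC and DMSO groups did not overlap in 25.4%. In bulk samples, fewer cells with a gene on and less RNA per cell cannot be told apart.

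**Figure D1:**
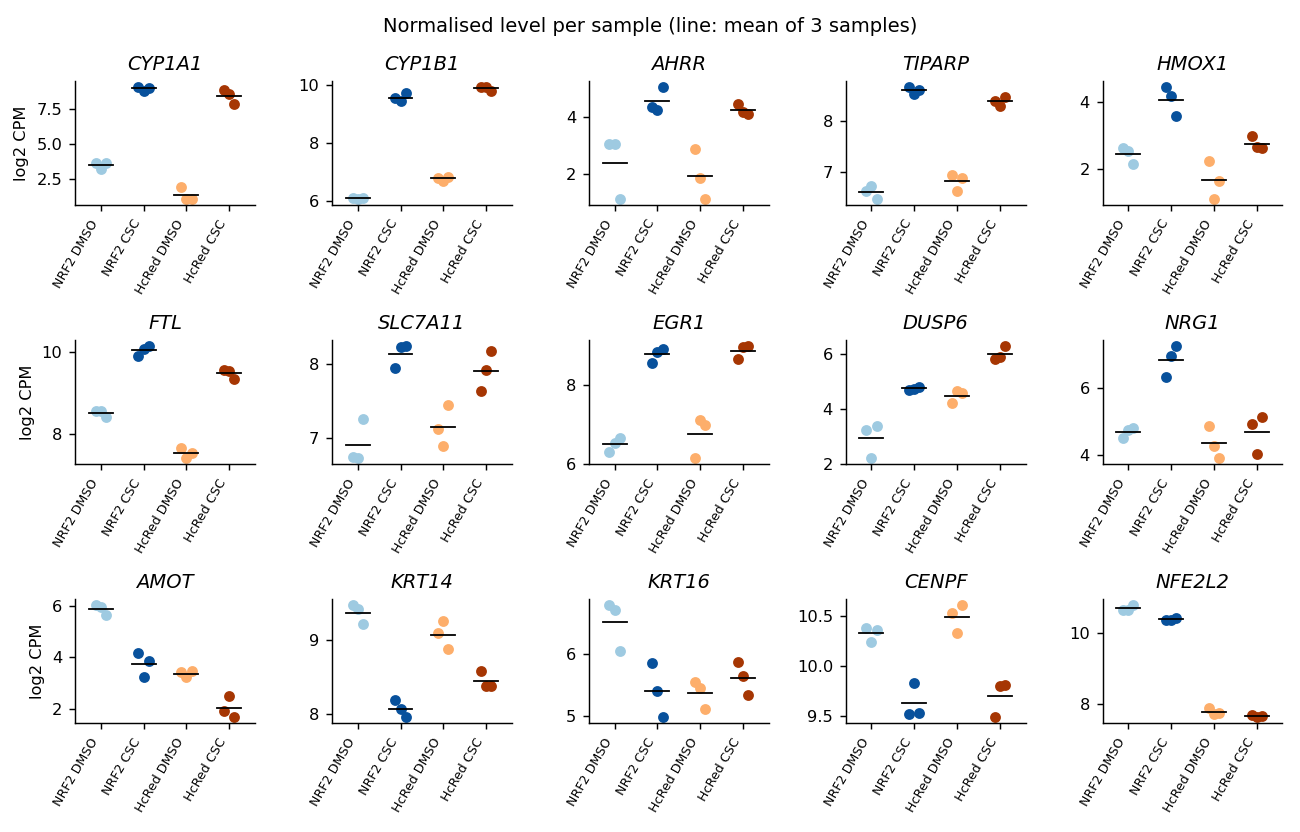
Level of 15 genes in each sample as log2 CPM (y axis, its range set for each gene), for NRF2 and HcRed cells given DMSO or CSC. Points are samples and lines the means of 3 samples. CYP1A1, CYP1B1, TIPARP and FTL are higher in every CSC sample than in every DMSO sample of both lines, NRG1 is higher in every NRF2-CSC than in every NRF2-DMSO sample while its HcRed groups overlap, and AMOT, KRT14 and CENPF are lower with CSC.

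The AhR battery held both of the largest rises among called genes, those of CYP1A1 and CYP1B1. Of 8 AhR targets tested, 6 rose and 0 fell, with a median log2 fold change of 1.80 against -0.0001 over all genes, of which 4.88% rose. In HcRed cells 6 of the 8 tested rose. CYP1A1, which oxidises polycyclic aromatic hydrocarbons, lies at chr15:75011883-75017877 (GRCh37, the files' build hg19, minus strand). It held 10, 6 and 9 reads in the NRF2-DMSO samples and 404, 297 and 418 in the NRF2-CSC samples, a rise of 5.64 ± 0.31 on the log2 scale (adjusted p = 1.54e-31). The lowest CSC sample was thus far above the highest DMSO sample. In HcRed cells the counts went from 2, 0 and 0 to 540, 518 and 222, and with only 2 reads over the DMSO samples the ratio of CPM, 507, had an exact 95% interval of 140 to 4194 that covers counting error only. The CYP1A1 changes of both lines did not differ past the threshold (interaction -2.87 ± 0.98, adjusted p = 0.252), a fitted value that rests on those 2 reads.

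CYP1B1, the related enzyme of the same family (chr2:38294116-38337044, minus strand), was the more abundant in DMSO, with 66, 53 and 58 reads, and reached 562, 482 and 681 with CSC (3.50 ± 0.12, adjusted p = 8.4e-47). Its change in HcRed cells was 3.11 ± 0.10. TIPARP, an ADP-ribosyltransferase that restrains AhR, rose from log2 CPM of 6.65, 6.73 and 6.48 to 8.67, 8.53 and 8.60 (2.0 ± 0.11, adjusted p = 2.29e-30), beside 1.53 ± 0.11 in HcRed cells. AHRR, the AhR repressor, was near the floor, with 6, 5 and 0 reads in DMSO and 14, 12 and 26 with CSC (2.91 ± 0.60, adjusted p = 0.00021). ALDH3A1, an aldehyde dehydrogenase known from smokers' airways, rose from 11, 4 and 8 to 26, 15 and 19 reads (1.60 ± 0.37, adjusted p = 0.00136). The sixth riser, NQO1, is also an NRF2 target and is described with them. The remaining targets tested, UGT1A6 and CYP2S1, had 4.17 and 8.83 reads a sample on average and did not pass the threshold. Of 7 members of the AhR complex, 2 fell, the chaperones HSP90AB1 (-0.44 ± 0.052) and HSP90AA1 (-0.26 ± 0.03), beside 4.22% of all genes that fell. In HcRed cells 3 of the 7 fell and 1 rose. AHR itself (-0.079 ± 0.11, adjusted p = 0.742) and ARNT (-0.20 ± 0.17, adjusted p = 0.537) did not pass.

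The DNA before the starts of 3 of these genes is shown because they rose together and because AhR with ARNT is known to bind a short core, GCGTG, in the genes it switches on. RefSeq held promoter entries (GRCh38.p14) for 6 of the 8 targets tested, and 4 of the 6 held GCGTG or its reverse complement CACGC within 250 bases before a start, against 32.2% of all 35116 such stretches in the table and 52.7% of the 10411 genes tested that had an entry. Capitals mark GCGTG or CACGC, and each line is read 5′ to 3′ on the gene's strand and ends just before the start.
CYP1A1, chr15:74725529-74725778, minus strand: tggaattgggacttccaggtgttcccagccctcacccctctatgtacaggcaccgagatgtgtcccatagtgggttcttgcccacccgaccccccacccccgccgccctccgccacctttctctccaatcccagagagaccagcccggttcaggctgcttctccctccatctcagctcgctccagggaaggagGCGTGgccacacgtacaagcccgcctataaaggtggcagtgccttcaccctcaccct
AHRR, first start, chr5:321464-321713, plus strand: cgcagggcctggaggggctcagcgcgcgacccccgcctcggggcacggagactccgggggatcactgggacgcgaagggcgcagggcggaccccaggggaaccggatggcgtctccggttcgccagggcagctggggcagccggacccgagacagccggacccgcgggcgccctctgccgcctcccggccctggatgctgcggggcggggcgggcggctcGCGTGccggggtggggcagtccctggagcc
AHRR, second start, chr5:322360-322609, plus strand: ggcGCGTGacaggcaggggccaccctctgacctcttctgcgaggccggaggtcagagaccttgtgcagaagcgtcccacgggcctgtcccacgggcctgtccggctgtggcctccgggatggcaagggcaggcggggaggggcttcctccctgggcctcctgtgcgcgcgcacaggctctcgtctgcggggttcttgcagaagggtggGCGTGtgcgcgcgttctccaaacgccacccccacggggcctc
TIPARP, first start, chr3:156674340-156674589, plus strand: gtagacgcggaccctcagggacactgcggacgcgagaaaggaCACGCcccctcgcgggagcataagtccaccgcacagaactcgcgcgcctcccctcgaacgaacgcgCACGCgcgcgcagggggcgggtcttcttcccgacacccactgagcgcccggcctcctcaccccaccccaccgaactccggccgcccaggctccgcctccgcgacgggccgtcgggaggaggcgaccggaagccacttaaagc
The stretches of CYP1A1 and of the first AHRR start hold 1 match each, and those of the second AHRR start and of TIPARP hold 2 each, and those of the other TIPARP starts hold 0. Genes that rose had a match in 58.1% and genes that fell in 52.7% of those with an entry, beside 52.7% of all genes tested. A match is a description of the letters and not of binding, which was not measured.

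NRF2 targets rose with CSC in cells that already overexpressed NRF2. Of 30 targets tested, 17 rose and 0 fell (median log2 fold change 0.71), against 4.88% of all genes that rose. By DESeq2 12 rose, and 13 to 16 when 1 sample was left out. In HcRed cells 20 of the same 30 rose (16 to 18 with 1 sample left out). For the interaction 0 of the 30 passed by limma-voom, edgeR or DESeq2 (7 at an unadjusted p under 0.05). In other fits some did: FTL with the replicate block (-0.40, adjusted p = 0.0385) or without HcRed-CSC 3 (-0.46, 0.0362), and, with the GFP line in place of HcRed, SLC7A11 (1.33, 2.85e-10), NQO1 (-0.53, 0.0318), SQSTM1 (-0.56, 0.017), a regulator outside that list, and TXNRD1 (-0.36, 0.0427). Of the AhR targets, CYP1A1 passed with the replicate block (-2.79, 0.0366), the only 1 of 24 alternative fits, whose values ran from -3.51 to -0.36. Mean CYP1A1 log2 CPM in DMSO and CSC was 3.51 and 8.94 in NRF2, 3.26 and 8.93 in GFP, and 1.38 and 8.38 in HcRed cells. The ferritin chains, which store iron, had the lowest adjusted p of the list. FTL held log2 CPM of 8.56, 8.55 and 8.42 in DMSO and 9.91, 10.08 and 10.16 with CSC (1.55 ± 0.068, adjusted p = 5.63e-39), and FTH1 9.31, 9.25 and 9.22 and 10.47, 10.44 and 10.42 (1.19 ± 0.054, adjusted p = 9.57e-38). FTL in NRF2-DMSO samples already lay above HcRed-DMSO samples, at 8.51 ± 0.078 against 7.52 ± 0.13 (SD, n = 3), a difference that was not tested. SLC7A11, the cystine importer that feeds glutathione synthesis, rose from 6.75, 6.73 and 7.26 to 7.94, 8.22 and 8.24 (1.24 ± 0.12, adjusted p = 6.27e-16), beside 0.72 ± 0.12 in HcRed cells. HMOX1, which breaks down heme, rose from only 4, 3 and 2 to 15, 11 and 8 reads (1.96 ± 0.54, adjusted p = 0.00872, or 0.0584 without NRF2-DMSO 3). SQSTM1, the autophagy receptor that binds KEAP1, rose by 0.84 ± 0.09 (adjusted p = 5.89e-13).

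NQO1, TXNRD1 and GCLM, named here after their values were seen, stand for quinone reduction, thioredoxin and glutathione synthesis. NQO1 rose by 1.13 ± 0.095, GCLM by 0.77 ± 0.13 and TXNRD1 by 0.69 ± 0.068, with adjusted p at most 5.29e-06 and with HcRed values of 1.51, 0.51 and 0.72. GSR, glutathione reductase, and PGD, of the pentose phosphate pathway, did not pass (0.22 ± 0.10 and 0.24 ± 0.10). Among regulators of NRF2, the small MAF partners MAFF (1.84 ± 0.61) and MAFG (0.56 ± 0.18) passed at adjusted p of 0.0384 and 0.0359, and both missed the threshold after the GC correction. Both calls were fragile: MAFF missed it without any 1 of 5 samples (all but NRF2-CSC 1) and MAFG without NRF2-CSC 3 or any NRF2-DMSO sample (adjusted p 0.062 to 0.461 and 0.069 to 0.188). The MAFF value was 0.68 without NRF2-DMSO 2. Of 25 phase II enzymes and efflux transporters 4 rose and 0 fell, against 4.88% of all genes that rose. The risers were the exporter ABCC3 (1.02 ± 0.19), the epoxide hydrolase EPHX1 (0.77 ± 0.21), and the glutathione transferases MGST1 (0.53 ± 0.10) and GSTP1 (0.47 ± 0.084). The GSTP1 call was lost with the correction (0.10, adjusted p = 0.623). In the list of genes known from smokers' airways, 8 of 13 tested rose, against the same 4.88%, and 8 of 13 rose in HcRed cells. In NRF2 cells 7 of the risers were members of the lists above. The eighth was UCHL1, a deubiquitinase (1, 3 and 6 to 6, 11 and 12 reads, adjusted p = 0.019). Its call was lost with the correction (adjusted p = 0.0703) and without NRF2-CSC 2, NRF2-CSC 3, NRF2-DMSO 1 or NRF2-DMSO 2 (0.0517 to 0.229).

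Of 12 genes of heme and iron handling 4 rose and 0 fell, against 4.88% of all genes that rose. The risers were both ferritin chains, HMOX1 and TFRC, the transferrin receptor (0.40 ± 0.081, adjusted p = 0.0002). In HcRed cells 4 of the 12 rose. MT2A, a metallothionein, rose from 9.22, 9.23 and 9.40 to 9.83, 10.35 and 10.27 log2 CPM (0.87 ± 0.066, adjusted p = 3.06e-21), and the other 3 metallothioneins tested did not pass. ALDH1A3, which makes retinoic acid, was the only 1 of 9 retinoid genes to rise (0.90 ± 0.094, adjusted p = 2.41e-13).

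**Figure D2:**
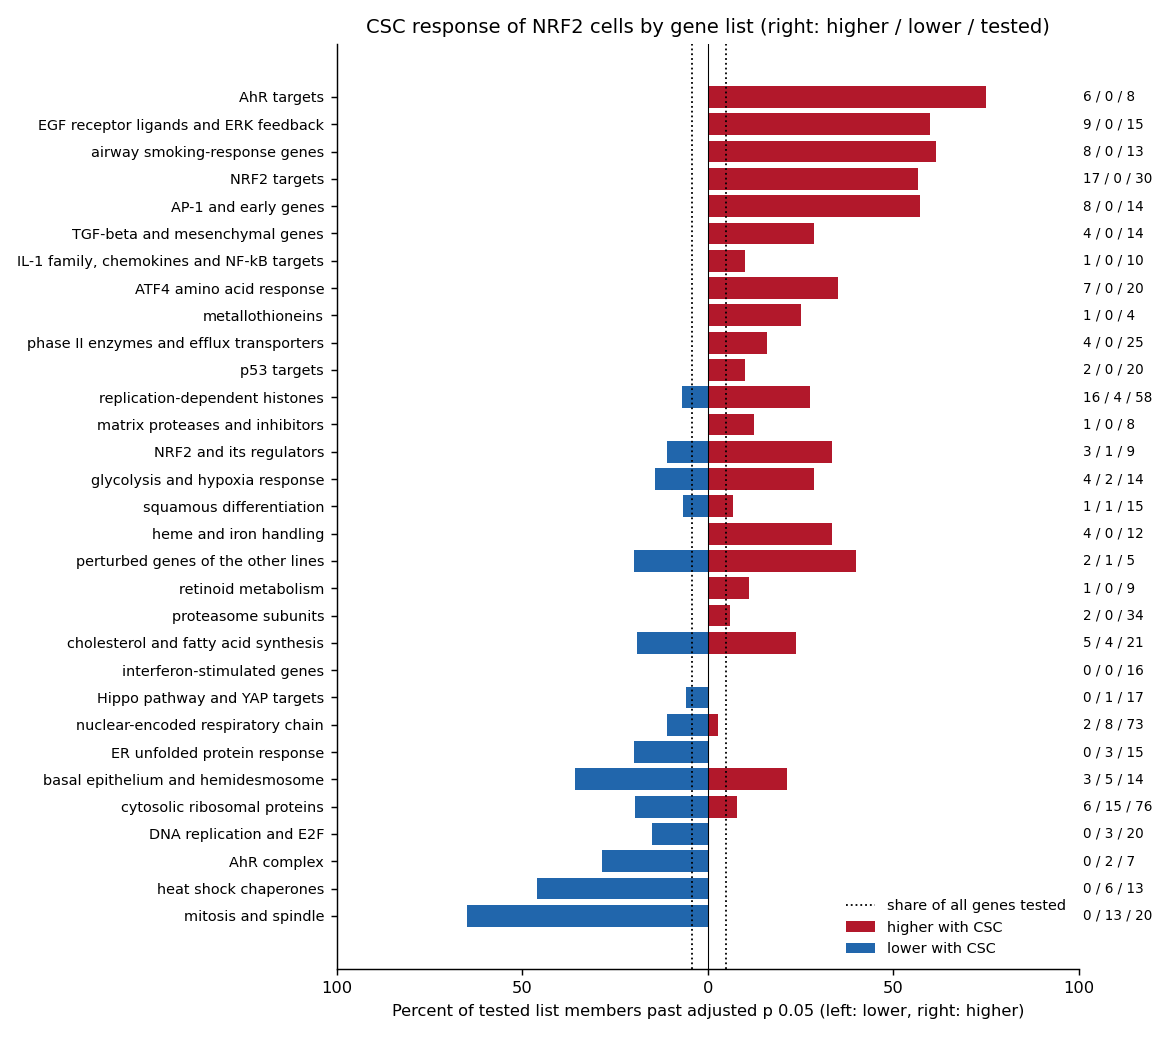
Share of tested members that were higher (red, right) or lower (blue, left) with CSC in NRF2 cells at an adjusted p under 0.05, in percent, for 31 gene lists ordered by median log2 fold change. Dotted lines mark the shares over all genes tested, 4.88% higher and 4.22% lower, and the figures at the right give members higher, lower and tested. The AhR, EGF receptor and ERK, smoking-response, NRF2 and AP-1 lists hold the largest shares of rises and the mitosis and heat shock lists the largest shares of falls.

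Many growth factor signalling genes rose. Of 15 EGF receptor ligands and feedback genes of the ERK pathway tested, 9 rose and 0 fell (median 1.44), against 4.88% of all genes that rose. After the GC correction 11 were higher, by DESeq2 5, and 7 to 10 when 1 sample was left out. In HcRed cells 12 of 16 rose. DUSP6 and DUSP4, phosphatases that switch ERK kinases off, went from 7, 2 and 7 to 18, 17 and 21 reads (2.07 ± 0.43, adjusted p = 0.000232) and from 30, 29 and 30 to 83, 81 and 90 (1.73 ± 0.18, adjusted p = 3.97e-13). PHLDA1, another ERK-responsive gene, rose from 14, 13 and 7 to 32, 39 and 28 reads (1.76 ± 0.30). In HcRed cells DUSP6, DUSP4 and PHLDA1 rose by 1.60, 1.69 and 1.48. The ligand EREG, named after its values were seen, rose by 1.44 ± 0.23 (adjusted p = 1.57e-06). The ligand TGFA (0.53 ± 0.19, adjusted p = 0.0554) and the inhibitor SPRED1 (0.49 ± 0.18, adjusted p = 0.0779) did not pass. After the GC correction both did (0.62, adjusted p = 0.0295, and 0.65, 0.0164). In HcRed cells TGFA rose (0.84, adjusted p = 2.18e-05) and SPRED1 did not pass (0.25, 0.273).

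Early response transcription factors rose as well, with 8 of 14 higher and 0 lower (median 0.70), against 4.88% of all genes that rose. In HcRed cells 11 of the 14 rose. EGR1 held log2 CPM of 6.30, 6.52 and 6.66 in DMSO and 8.55, 8.85 and 8.92 with CSC (2.32 ± 0.12, adjusted p = 2.48e-33), beside 2.20 ± 0.13 in HcRed cells. The AP-1 subunit FOSL1 went from 6, 3 and 2 to 14, 22 and 18 reads (2.43 ± 0.49), FOS from 18, 14 and 9 to 51, 36 and 29 (1.69 ± 0.28) and JUNB from 60, 36 and 53 to 123, 108 and 146 (1.57 ± 0.15), all without overlap between groups. JUN itself did not pass (0.48 ± 0.20, adjusted p = 0.113). In HcRed cells FOSL1, FOS and JUNB rose by 2.17, 2.56 and 1.29. JUN rose there too (0.78, adjusted p = 0.00035), a call lost with the GC correction (adjusted p = 0.103). IL1A, the cytokine interleukin 1 alpha, was the only member of its list of 10 to rise (21, 10 and 16 to 40, 46 and 47 reads, 1.73 ± 0.26, adjusted p = 1.2e-07). In HcRed cells 4 of 12 of that list rose, IL1A by 1.54. None of 16 interferon-stimulated genes passed in either direction by limma-voom, edgeR or DESeq2 (2 at an unadjusted p under 0.05). Of all genes tested 9.1% were called by limma-voom. In HcRed cells 1 of 17 interferon-stimulated genes rose and 3 fell.

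NRG1, the gene of the ligand neuregulin 1, was the EGF family ligand with the largest rise among those called and had the largest interaction term among called genes that averaged 10 reads or more. It held 20, 20 and 22 reads in NRF2-DMSO and 58, 84 and 122 in NRF2-CSC samples (2.25 ± 0.23, adjusted p = 3.4e-14). In HcRed cells the counts were 31, 12 and 13 and 34, 20 and 33 (0.26 ± 0.29, adjusted p = 0.561), and the interaction term was 2.0 ± 0.39 (adjusted p = 0.00289, but 0.503 by DESeq2, 0.0845 with no filter on low counts and 0.556 in the fit of all 95 samples). Without HcRed-DMSO 1, the highest of the control samples, that term was 1.65 (adjusted p = 0.112). NRF2 cells given BaP held 13 to 21 reads of NRG1 and those given NNK 2 to 13. The series also holds a line that overexpresses NRG1, with 2536 to 9146 reads a sample, and single samples of other lines without that construct reached 287 reads (CDKN2A, DMSO) and 380 reads (FGFR1, DMSO). Of the 5 genes that other lines of the series perturb and that were tested here, 2 rose and 1 fell (0 fell by edgeR or DESeq2). Over all genes tested 4.88% rose and 4.22% fell. Besides NRG1 the riser was FGFR1 (0.89 ± 0.23, adjusted p = 0.00549, but 0.0615 to 0.0764 without NRF2-CSC 3, NRF2-DMSO 1 or NRF2-DMSO 3). Whether reads of the NRG1 construct reached the NRF2-CSC samples was not tested.

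AMOT, an adaptor of the angiomotin family that holds back the co-activator YAP, gave the largest fall among the named genes. It lies at chrX:112017731-112084059 (GRCh37, minus strand). It held 63, 49 and 42 reads in NRF2-DMSO and 12, 5 and 10 in NRF2-CSC samples (-2.27 ± 0.32, adjusted p = 1.68e-08), and every CSC sample lay below every DMSO sample. In HcRed cells AMOT was much lower to begin with, at 10, 5 and 9 reads in DMSO, and went to 2, 5 and 1 (-1.89 ± 0.59, adjusted p = 0.0128, but 0.0566 without HcRed-CSC 1 and 0.0995 by DESeq2). The mean level of AMOT was 3.75 ± 0.48 log2 CPM in NRF2-CSC and 3.37 ± 0.13 in HcRed-DMSO samples (SD, n = 3). In NRF2 cells given BaP and NNK it was 4.75 ± 0.10 and 5.60 ± 0.40. Of 17 Hippo pathway genes and YAP targets 1, AMOT, was called by limma-voom, a share not above the 9.1% of all genes tested. After the GC correction 2 rose and 1 fell. The AMOT paralog AMOTL1 differed by -0.005 ± 0.089 and the YAP partner TEAD1 by -0.089 ± 0.085. In HcRed cells 4 of 18 fell and 1 rose.

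Other falls were of genes of different kinds. DKK1, a secreted inhibitor of Wnt signalling, fell from log2 CPM of 7.01, 7.17 and 7.04 to 5.98, 5.90 and 5.61 (-1.27 ± 0.16, adjusted p = 5.07e-10), beside -0.71 ± 0.17 in HcRed cells. NR2F2, an orphan nuclear receptor, fell from 7.63, 7.59 and 7.45 to 6.76, 6.51 and 6.42 (-1.01 ± 0.13, adjusted p = 9.29e-10). HCFC2 (-1.42 ± 0.32) and the pseudogene HNRNPA1P33 (-1.77 ± 0.46) fell, the latter uncertain because its sequence is shared with HNRNPA1.

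Keratins of the basal layer fell. KRT14 held log2 CPM of 9.48, 9.42 and 9.22 in NRF2-DMSO and 8.20, 8.07 and 7.96 in NRF2-CSC samples (-1.31 ± 0.081, adjusted p = 5.44e-27), and its partner KRT5 12.40, 12.39 and 12.31 and 11.82, 11.63 and 11.69 (-0.65 ± 0.026, adjusted p = 4.3e-42). KRT15, another basal keratin, went from 57, 58 and 36 to 18, 11 and 22 reads (-1.31 ± 0.25), and KRT16, a keratin of activated epithelium, from 106, 84 and 55 to 42, 28 and 24 (-1.15 ± 0.20, adjusted p = 6.43e-06). KRT17 did not pass (-0.087 ± 0.04, adjusted p = 0.18) but fell after the GC correction (-0.33, adjusted p = 9.9e-12). KRT14, KRT16 and KRT17 are close copies of one another and share reads with pseudogenes, so the split between them is uncertain. Of 14 genes of the basal layer and the hemidesmosome, which anchors these cells, 5 fell and 3 rose, and 7 fell and 1 rose after the correction. Over all genes tested 4.22% fell and 4.88% rose before it. In HcRed cells 4 of the 14 fell and 4 rose. DST, which links keratins to the hemidesmosome, fell (-0.46 ± 0.046), and EGFR, the EGF receptor, rose by 0.23 ± 0.058 (adjusted p 0.0657 without NRF2-CSC 2). Of 15 genes of squamous differentiation, KRT16 fell and KRT6A rose (0.15 ± 0.04, adjusted p = 0.00568), and the KRT6A value was -0.031 after the correction and missed the threshold without NRF2-CSC 1 (adjusted p 0.0861) or NRF2-DMSO 3 (0.117).

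Most of the mitosis genes tested fell. Of 20 genes of the mitotic spindle and its checkpoint, 13 fell and 0 rose (median -0.45, against 4.22% of all genes that fell), 14 fell after the GC correction and 13 in each of 6 fits that left out 1 sample. CENPF, a kinetochore protein, held log2 CPM of 10.38, 10.24 and 10.36 in DMSO and 9.52, 9.83 and 9.53 with CSC (-0.71 ± 0.055, adjusted p = 1.39e-20). CENPE, a kinetochore motor (-0.67 ± 0.072), KIF20A, a motor of cytokinesis (-0.63 ± 0.10), and the checkpoint kinase TTK (-0.56 ± 0.13) fell too. In HcRed cells 14 of the 20 fell and 1 rose, with CENPF at -0.81, CENPE at -0.97, KIF20A at -0.33 and TTK at -0.58. For the interaction 0 of the 20 passed by limma-voom. CDK1 did not pass (-0.16 ± 0.10, adjusted p = 0.399), and of 20 DNA replication genes 3 fell (0 by DESeq2), TYMS the most (-0.62 ± 0.20), a call lost without any 1 sample but NRF2-CSC 3 (adjusted p 0.0598 to 0.112). In HcRed cells 8 of those 20 fell and 2 rose. CDK1 fell there (-0.62, adjusted p = 3.59e-06), a call lost with the GC correction (adjusted p = 0.184). CDKN1A, the p21 inhibitor of the cell cycle, rose from 6.69, 6.78 and 6.54 to 7.71, 7.63 and 7.60 (0.99 ± 0.12, adjusted p = 2.19e-10), beside a rise of 1.19 in HcRed cells. Of 20 p53 targets 2 rose and 0 fell, against 4.88% of all genes that rose, and MDM2 differed by -0.051 ± 0.095.

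Chaperones fell as well, 6 of 13 heat shock chaperones and 3 of 15 genes of the unfolded protein response of the endoplasmic reticulum, with 0 higher in either list. By DESeq2 4 and 2 fell. Over all genes tested 4.22% fell, and in the highest of 4 equal groups by mean count 21.9% were called in either direction. In HcRed cells 8 of the 13 fell and 1 rose, and 5 of the 15 fell and 1 rose. HSPA8, the constitutive HSP70, fell from 10.74, 10.69 and 10.78 to 10.24, 10.39 and 10.23 (-0.45 ± 0.044, adjusted p = 4.48e-15), and so did its co-chaperone DNAJA1 (-0.50 ± 0.091) and HSPA5, the chaperone of the endoplasmic reticulum (-0.38 ± 0.065, adjusted p = 4.61e-06). In HcRed cells HSPA8, DNAJA1 and HSPA5 differed by -0.25, -0.36 and -0.18. Of the ATF4 genes, which answer amino acid shortage and stress, 7 of 20 rose (4 by DESeq2), against 4.88% of all genes that rose. The ATF4 mRNA itself stood at 0.0063 ± 0.13. In HcRed cells 8 of the 20 rose. SLC7A5, an amino acid importer, rose by 0.72 ± 0.03 (0.39 after the GC correction), STC2, a secreted glycoprotein, by 1.36 ± 0.32, and TRIB3, a pseudokinase, by 1.03 ± 0.25, the last a call lost with the correction (adjusted p = 0.0924).

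Lipid genes moved in both directions. ABCA1, which exports cholesterol, rose from 31, 23 and 36 to 127, 97 and 132 reads (2.21 ± 0.18, adjusted p = 4.86e-19), beside 2.14 ± 0.21 in HcRed cells. Of 21 genes of cholesterol and fatty acid synthesis 5 rose and 4 fell, beside 4.88% and 4.22% of all genes tested. In HcRed cells 8 of the 21 rose and 6 fell. SREBF1, the regulator of fatty acid synthesis, rose by 1.0 ± 0.10, fatty acid synthase (FASN) by 0.84 ± 0.053 and DHCR7, of cholesterol synthesis, by 0.67 ± 0.12, values that were 0.59, 0.37 and 0.43 after the GC correction. In HcRed cells SREBF1, FASN and DHCR7 rose by 1.14, 1.08 and 0.70 before that correction. HMGCS1 and SC5D, also of cholesterol synthesis, fell (-0.41 ± 0.10 and -0.57 ± 0.16), and both calls were lost with the correction. HMGCS1 also missed the threshold without NRF2-CSC 1 (adjusted p 0.0723) and SC5D without NRF2-CSC 3 (0.0733). SCD, the most abundant of the list, differed by -0.016 ± 0.033 (adjusted p = 0.839).

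Of 14 TGF-beta and mesenchymal genes 4 rose and 0 fell, beside 4.88% of all genes that rose and 4.22% that fell. In HcRed cells 5 of 15 rose and 3 fell. TGFBI, a secreted matrix protein induced by TGF-beta, held log2 CPM of 9.89, 9.81 and 9.86 in DMSO and 10.76, 10.62 and 10.75 with CSC (0.86 ± 0.047, adjusted p = 2.53e-31). The ligand TGFB1 rose by 0.96 ± 0.16 (0.55 after the GC correction), while fibronectin (FN1) differed by -0.023 ± 0.093. In HcRed cells TGFBI rose by 0.83 and TGFB1 by 0.78, and FN1 fell (-0.33). The TGFB1 and FN1 calls of HcRed cells were lost with the correction. COL1A1, of the fibroblast markers, moved in the same direction while COL1A2, COL3A1, LUM and PDGFRB were at 0, and its part in these rises was not tested. TIMP1, an inhibitor of matrix proteases, was the only 1 of 8 in its list to rise (0.75 ± 0.15, adjusted p = 0.00016). Another 3 rises among the 15 largest were ADAM8, a membrane protease (4, 2 and 4 to 13, 22 and 16 reads), GDA, guanine deaminase (7, 6 and 5 to 31, 21 and 24), and SECTM1, a secreted and membrane protein (21, 13 and 14 to 61, 45 and 49). Glycolysis and hypoxia genes gave 4 higher and 2 lower of 14, and VEGFA, the vascular growth factor, rose by 0.87 ± 0.24, a call lost with the correction (adjusted p = 0.0524) and without NRF2-DMSO 3 (0.0918).

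Ribosomal protein genes split, with 15 lower and 6 higher of 76, such as RPS6 (-0.57 ± 0.057) and RPS9 (0.48 ± 0.11), and 17 lower and 1 higher after the GC correction, which ended the RPS9 call (0.29, adjusted p = 0.127). By DESeq2 6 fell and 1 rose. In the nuclear-encoded respiratory chain 8 of 73 fell and 2 rose, UQCRH among the falls (-0.63 ± 0.13), and 2 fell and 0 rose by DESeq2. Proteasome subunits gave 2 higher and 0 lower of 34. Beside these lists, 4.88% of all genes tested rose and 4.22% fell. In the highest of 4 equal groups by mean count 21.9% were called, and no list was set beside genes of like mean count. Replication-dependent histones, whose transcripts lack a poly-A tail, gave 16 higher and 4 lower of 58 and 6 higher and 9 lower of 52 after the correction (3 higher and 0 lower by DESeq2), with HIST1H3C at 0.69 ± 0.11 and HIST1H2AJ at -0.48 ± 0.13, the latter short of the threshold without NRF2-CSC 1 (adjusted p 0.0818) or NRF2-DMSO 1 (0.0635).

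Small nucleolar RNAs, the guides of ribosomal RNA modification that are cut from introns of host genes, made up 0.414% to 0.452% of counted reads in the NRF2-CSC and 0.252% to 0.255% in the NRF2-DMSO samples. Of 214 such genes tested 30 rose and 0 fell (median 0.64), against 4.88% of all genes that rose. After the GC correction 9 of 171 rose and 1 fell (median 0.21), with GC content matched by name. Of all 13468 genes in that fit 281 rose. In HcRed cells 28 of 234 rose and 1 fell, which is not above the 12.7% of all genes that rose there. SNORD68 went from 15, 15 and 20 to 73, 46 and 67 reads, SNORD81 from 15, 8 and 9 to 49, 25 and 44 and SNORD28 from 12, 13 and 5 to 28, 37 and 32, all 3 without overlap. In HcRed cells SNORD68 rose by 1.46 and SNORD81 by 0.86, and SNORD28 did not pass (0.51, adjusted p = 0.17). Reads of a snoRNA and of its host intron cannot be told apart here, and several copies can share a name.

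A property of the transcripts moved with the whole response. Over 9988 genes of known GC content that averaged 10 reads or more in the 12 samples, the log2 fold change of NRF2 cells correlated with the GC percentage of the longest transcript (Spearman's rho 0.490), and that of HcRed cells more (0.746), while the values for transcript length were -0.12 and -0.18. These are descriptions over genes, which share the same libraries. The genes that rose had a median GC content of 58.3%, those that fell 41.6%, and those not called 46.4%. In the lowest of 10 equal groups by GC content 1.04% rose and 11.6% fell, and in the highest group 24.8% rose and 0.622% fell. The counted reads themselves had a mean GC content of 47.6% to 47.8% in the CSC and 46.6% to 46.9% in the DMSO samples of NRF2 cells. When a trend with GC content and then with length was removed from each sample, 701 genes were called, 281 higher and 420 lower, 530 of them among the 1269. CYP1A1, CYP1B1, TIPARP, FTL, FTH1, SLC7A11, EGR1, NRG1, AMOT, KRT14, KRT5 and CENPF passed under both. In simulated counts a GC trend was added to all genes of known GC content, and 200 genes were given a change of their own. Of the uncorrected calls 87.3% were of genes without such a change, and 5.85% after the correction. That trend was set in advance and not fitted to these samples. The outcome thus checks the correction and does not give the share of such calls here. Whether the trend in the measured samples comes from the cells or from the libraries was not tested.

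**Figure D3:**
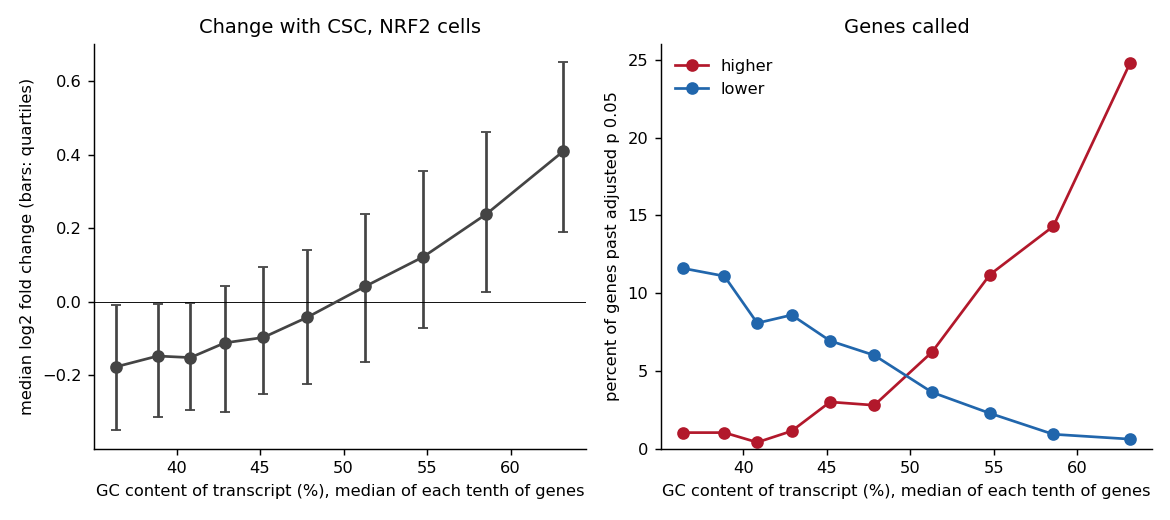
Change with CSC in NRF2 cells by GC content. Genes that averaged 10 reads or more were put in 10 equal groups by GC percentage (x axis, median of each group), and the left panel gives the median log2 fold change with quartiles as bars, the right panel the percent of genes called higher (red) or lower (blue). The median change runs from -0.18 in the lowest to 0.41 in the highest group.

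The response of NRF2 cells was then set beside that of HcRed cells, which share no sample with it. In HcRed cells 3426 of 14410 genes (23.8%) were called, 1823 (12.7%) higher and 1603 (11.1%) lower, from deeper libraries on average. Of the 1269 genes called in NRF2 cells 944 were called in the same direction in HcRed cells, 74.4% of the NRF2 calls and 27.7% of the 3405 HcRed calls tested in both, and 1 gene, FAT2, was called in opposite directions. The sign was the same for 97.4% of NRF2 calls and for 70.4% of all 13631 genes tested in both. Genes called in NRF2 cells had a median absolute log2 fold change of 0.57 in either line, but choosing them by that call favours large values in NRF2 cells. Over 10081 genes that averaged 10 reads or more, the SD of the log2 fold change was 0.40 in NRF2 and 0.48 in HcRed cells. Spearman's rho between both sets of changes was 0.636 over the same genes. Both sets of changes followed GC content, as given above.

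**Figure D4:**
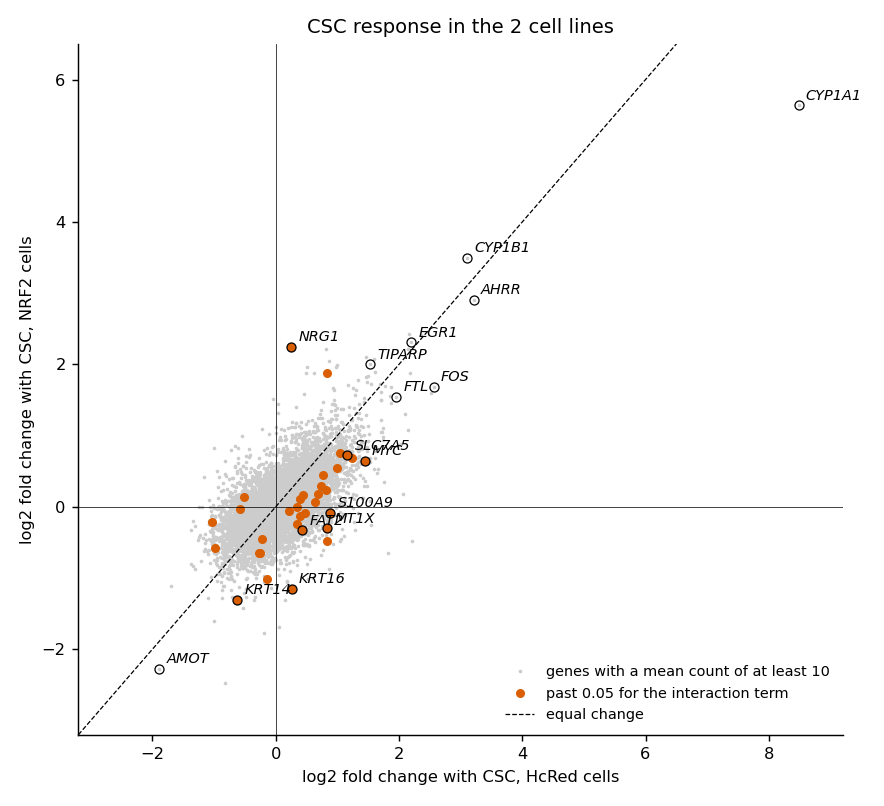
Log2 fold change with CSC in NRF2 cells (y axis) against that in HcRed cells (x axis) for 10081 genes that averaged 10 reads or more (grey). Orange points passed an adjusted p of 0.05 for the interaction term, open circles are labelled genes, and the dashed line marks equal change. CYP1B1, EGR1, AHRR and AMOT lie close to the line, NRG1 lies above it, and KRT16, KRT14 and FAT2 lie below it. The HcRed value of CYP1A1 is a fit that rests on 2 reads in DMSO.

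The interaction term, which tests whether the CSC change differs between the lines, was called for 34 of 14277 genes (0.238%), 27 (0.189%) with a smaller or more negative change in NRF2 cells and 7 (0.049%) with a larger one. At an unadjusted p under 0.05 there were 1422 (9.96%). FAT2, an atypical cadherin of squamous epithelium, moved in opposite directions: log2 CPM in NRF2 cells went from 9.80, 9.86 and 9.68 to 9.50, 9.32 and 9.51 (-0.33 ± 0.059), and it rose by 0.43 ± 0.072 in HcRed cells, a call that the GC correction ended (0.20, adjusted p = 0.0625). Its interaction term was -0.77 ± 0.094 (adjusted p = 4.33e-08). The keratins KRT14 and KRT5 fell in both lines, by more in NRF2 cells, with interaction terms of -0.68 ± 0.12 (adjusted p = 0.000454) and -0.38 ± 0.048 (adjusted p = 4.33e-08). KRT16 fell in NRF2 cells against 0.26 ± 0.19 in HcRed cells (interaction -1.40 ± 0.29, adjusted p = 0.00603), and KRT17 rose by 0.47 ± 0.056 in HcRed cells, where the GC correction ended the call (0.064, adjusted p = 0.543), with an interaction of -0.56 ± 0.074 (adjusted p = 1.32e-07). S100A9, a calcium-binding protein of stressed epithelium, rose in HcRed cells (0.89 ± 0.12) and stood at -0.084 ± 0.11 in NRF2 cells (interaction -0.97 ± 0.17, adjusted p = 0.000454).

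Other genes rose in both lines but by different amounts. MYC rose by 0.65 ± 0.10 in NRF2 and 1.44 ± 0.12 in HcRed cells (interaction -0.79 ± 0.16, adjusted p = 0.0031). In DMSO, MYC held log2 CPM of 7.41, 7.24 and 7.43 in NRF2 cells and 6.57, 6.54 and 6.62 in HcRed cells. SLC7A5 rose by 0.72 ± 0.03 and 1.16 ± 0.05 (interaction -0.43 ± 0.056, adjusted p = 1.18e-07), while the small nucleolar RNA SNORA63 rose by 1.87 ± 0.18 and 0.84 ± 0.17 (interaction 1.04 ± 0.25, adjusted p = 0.0333). The metallothionein MT1X stood at -0.30 ± 0.18 in NRF2 and rose by 0.84 ± 0.16 in HcRed cells (interaction -1.13 ± 0.25, adjusted p = 0.0146). Some terms were near the threshold. KRT16 missed it when NRF2-CSC 3, NRF2-DMSO 1 or HcRed-DMSO 3 was left out (adjusted p 0.0536 to 0.116), and MT1X and SNORA63 each missed it in 5 of the 12 fits that left out 1 sample, whereas KRT14, KRT5, KRT17, S100A9, FAT2, MYC and SLC7A5 passed in all 12 fits. The SLC7A5 term was lost with the GC correction (-0.23, adjusted p = 0.0685), as were those of MT1X and SNORA63 (0.0685 and 0.33), and with the GFP line as control S100A9 turned to 0.18 and MT1X missed the threshold (0.491). Of the 8 AhR targets 0 passed for the interaction by limma-voom, edgeR or DESeq2, with 4 at an unadjusted p under 0.05.

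**Figure D5:**
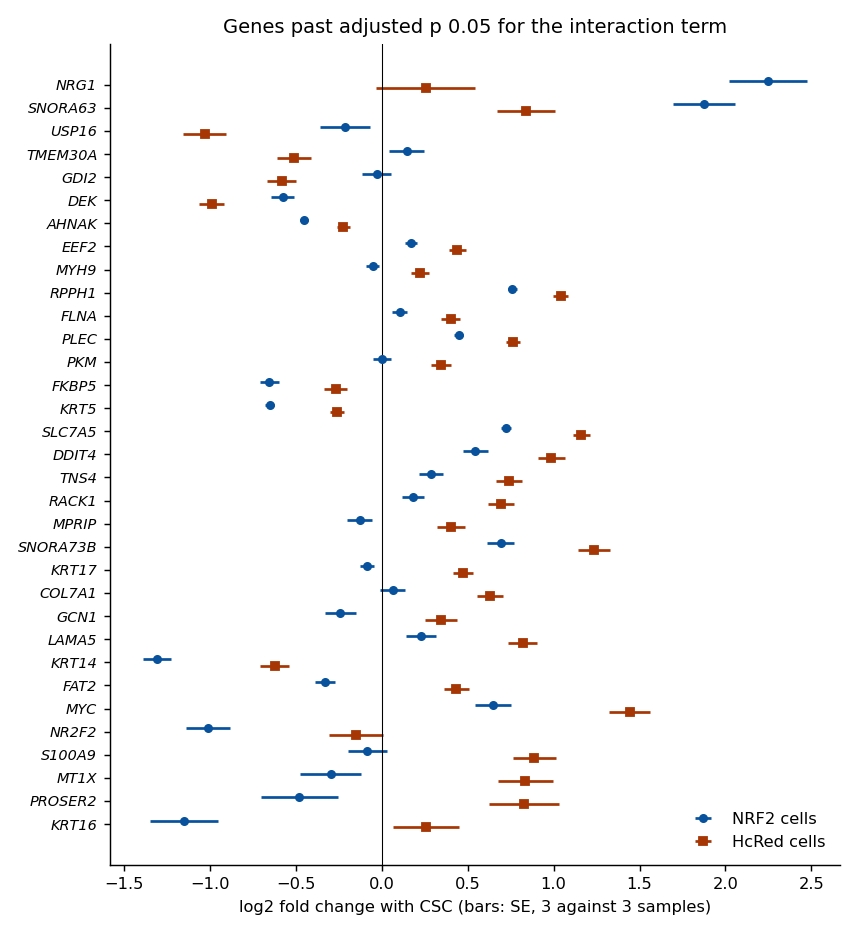
Log2 fold change with CSC (x axis) in NRF2 cells (blue circles) and HcRed cells (brown squares) for the 33 genes past an adjusted p of 0.05 for the interaction term that averaged 10 reads or more, ordered by that term. Bars are SE of 3 against 3 samples. The largest terms are those of NRG1 at 2.0 and of KRT16 at -1.40.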

How the data were processed

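SFL RNA-seq was read as 75-bp single-end reads from pooled, barcoded libraries. Per the submitters' processing notes, reads were handled with cutadapt 1.12, FastQC 0.11.5, STAR 2.5.2b and featureCounts on build hg19. The authors deposited whole-number counts per RefSeq gene for each sample, not normalized, and counts of NRF2 and HcRed samples were used as deposited. Strand setting and removal of duplicate reads were not given in the sources used here. Groups came from the sample titles, and the main fits did not pair samples by replicate number.

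Genes with a mean count above 1 over the samples of a comparison were tested by limma 3.58.1 (voom, TMM factors from edgeR 4.0.16, R 4.3.3) with Benjamini-Hochberg adjustment at 0.05. NRF2 and HcRed cells were fitted apart, and the interaction over 12 samples. Levels are log2 CPM with a prior count of 2. Alternatives were edgeR and DESeq2 1.42.0, other scaling and filters, a replicate block, the 10000 most variable genes, fits of 12 and of 95 samples, the GFP line as control, each sample left out, and loess correction (span 0.3) for GC content and length. A fit without correction on the genes of known GC content and the lists under the alternatives were added after seeing the data. GC content and positions came from GENCODE on GRCh37, with 25063 of 27978 genes matched by name, and promoters from RefSeq on GRCh38.p14, whose coordinates were not mixed with the former. The fits were tested on simulated data, with and without a GC trend. Figures were drawn with matplotlib 3.10.9 in Python 3.11.15.

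The cells, genes and lists were chosen with earlier results of these data known. Named were NFE2L2, KEAP1, CYP1A1 and AMOT, the 15 largest rises and falls without overlap and with a mean count of at least 10, up to 4 called and 3 uncalled members of each list in each direction, and up to 10 interaction genes. At 688687 to 992416 counted reads a sample, 3 reads are 3.02 to 4.36 CPM. Intervals cover counting error only.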

Additional observations from a re-analysis of the deposited data

Results flagged for a closer look

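The interaction term, a test of whether the CSC change differs between NRF2 and HcRed cells, passed the threshold for 34 genes by limma-voom. The terms of 10 of them, chosen by size among those that averaged 10 reads or more, are given here as log2 differences, NRF2 minus HcRed. NRG1, a ligand of ERBB receptors, had a term of 2.0, and SNORA63, a small nucleolar RNA, one of 1.04. USP16, a deubiquitinase, had 0.82, with a fall in HcRed cells (-1.03 ± 0.13) and -0.21 ± 0.15 in NRF2 cells. KRT16 had -1.40 and PROSER2 -1.30, the latter with -0.48 ± 0.22 in NRF2 and a rise of 0.83 ± 0.21 in HcRed cells. The metallothionein MT1X had -1.13 and the epithelial calcium-binding protein S100A9 -0.97. The nuclear receptor NR2F2 had -0.86, with a fall in NRF2 cells and -0.15 ± 0.16 in HcRed cells. MYC had -0.79 and the cadherin FAT2 -0.77. When each of the 12 samples was left out in turn, S100A9, MYC and FAT2 passed in all 12 fits, NR2F2 in 4, PROSER2 in 5, USP16 in 6, MT1X and SNORA63 in 7, KRT16 in 9 and NRG1 in 11. The GC correction also ended the calls of NR2F2 (adjusted p = 0.174), PROSER2 (0.132), USP16 (0.439), MT1X (0.0685) and SNORA63 (0.33), all of which also missed the threshold with DESeq2 (0.135 to 0.57) and with no filter on low counts (0.0845 to 0.152). PROSER2, USP16 and MT1X missed it with the GFP line as control (0.13, 0.238 and 0.491). NRG1 missed the threshold with DESeq2 (0.503), with no filter on low counts (0.0845) and in the fit of all 95 samples (0.556), and KRT16 with DESeq2 (0.135) and with no filter (0.0845). What set these genes apart was not tested.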

How the results depend on the processing

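The CSC response of NRF2 cells, 1269 genes by limma-voom, came to 376 with DESeq2, 701 with the GC and length correction and 843 with that correction and the replicate block, and to 817 to 1027 when 1 of the 6 samples was left out (lowest without NRF2-DMSO 1). That of HcRed cells, 3426 genes, came to 1528, 974 and 1264 under the same 3 settings, and to 2148 to 3280 with 1 sample left out (lowest without HcRed-DMSO 3). The interaction, 34 genes, came to 7 with DESeq2, 19 with no filter on low counts, 97 with the replicate block, 10 with the GC correction, 17 with that and the block, 86 with the GFP line in place of HcRed, 16 in a fit of all 95 samples, and 15 to 71 with 1 sample left out (15 without NRF2-DMSO 1, 71 without HcRed-CSC 3). Deviations from group means correlated by 0.023 to 0.044 between same-numbered NRF2 samples, against a mean of -0.018 between differently numbered ones. Whether samples with the same number shared a culture or handling was not given in the sources used here. The replicate block moved the NRF2 count to 1554 and the HcRed count to 3902. Counts under edgeR, median-ratio or library-size scaling and the remaining filters and fits stayed within 1.5 times. With the GC correction the share of NRF2 calls that were higher went from 53.7% to 40.1%, and the cause was not tested. Of 6527 values of single genes under an alternative, 6259 kept direction and side of the threshold, 208 lost the call, 53 gained it and 7 reversed. The reversed ones were KRT6A in NRF2 cells, -0.031 with the correction and -0.024 with the block added, KEAP1 in HcRed cells, -0.11 and -0.076, AHR in HcRed cells, 0.33 and 0.34, and S100A9 for the interaction with GFP, 0.18. Of the lowest of 4 equal groups of genes by mean count, 0.567% were called. With DESeq2 the NRF2 calls of HMOX1, MAFF, MAFG, UCHL1, HNRNPA1P33, KRT6A, EGFR, TTK, TYMS, HMGCS1, SC5D, STC2, TRIB3, VEGFA, HIST1H2AJ and FGFR1 were lost. Fits that left out 1 sample had 2 samples in that group.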
